A study of Homo sapiens with 6 samples.

Results

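A set of 46 genes that license, start and carry out DNA replication was followed in the SU-CCS-1 cell line after knockdown of the EWSR1::ATF1 fusion (EA1). The members were listed by gene symbol, with earlier results of these data known, and all 46 were found among the 18118 genes of the counts table. All 46 also passed the filter on low counts, which left 14571 genes tested. SU-CCS-1 is an established human line of clear cell sarcoma, a soft tissue cancer with melanocytic features, and every library used here came from this 1 line, which carries the fusion throughout. Polyadenylated RNA was sequenced with a stranded kit 48 h after transfection of 5 pmol siRNA. There were 2 libraries with a scrambled control siRNA, 2 with EA1 siRNA 1 (labelled EA1-1) and 2 with EA1 siRNA 2 (labelled EA1-2). The study's methods describe a single siRNA against the fusion, so the labels alone tell the EA1 siRNAs apart. The comparison of control with knockdown asks which genes change with siRNA directed at the fusion.

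Replication starts when the origin recognition complex (ORC), CDC6 and CDT1 load a ring of MCM2 to MCM7, the replicative helicase, onto DNA in the G1 phase of the cell cycle, a step called licensing. In S phase the kinase CDC7 with its partner DBF4, together with CDC45 and the GINS complex, turns the loaded ring into a moving helicase, and primase, DNA polymerases, the sliding clamp PCNA, its loader RFC and the single strand binding protein RPA follow at the fork. Many of these genes are transcribed periodically in dividing cells under E2F transcription factors, and tumor cells in culture usually express most of them. In bulk libraries such as these, fewer cells in the stage that expresses a gene and less RNA per cell cannot be told apart.

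Promoter sequence of 5 members is shown here, for 4 genes called higher in control and for RFC1, which was not called, so that the words bound by the E2F and ATF/CREB families can be read beside the values given further on. Each run is 300 bases of the RefSeq promoter table on GRCh38.p14, from 250 bases before to 50 bases after the annotated start, 5′ to 3′ on the gene's own strand. Capitals mark the E2F words TTTCCCGC, TTTCGCGC, TTTGGCGC and TTTGCCGC, the cAMP response element TGACGTCA, which is the site bound by ATF1 and its relatives, and the word CCAAT, each searched on both strands, with overlapping words of a kind joined into 1 stretch. CDC6 lies at chr17:40287629-40287928 on the plus strand, MCM10 at chr10:13161308-13161607 on the plus strand, MCM6 at chr2:135876394-135876693 on the minus strand, RFC3 at chr13:33817899-33818198 on the plus strand and RFC1 at chr4:39366313-39366612 on the minus strand.
CDC6: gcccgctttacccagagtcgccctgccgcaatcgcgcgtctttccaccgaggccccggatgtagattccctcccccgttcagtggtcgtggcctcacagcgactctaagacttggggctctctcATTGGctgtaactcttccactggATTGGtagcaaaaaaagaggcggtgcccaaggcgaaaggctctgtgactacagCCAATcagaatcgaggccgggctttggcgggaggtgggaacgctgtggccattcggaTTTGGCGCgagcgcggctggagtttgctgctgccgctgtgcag
MCM10: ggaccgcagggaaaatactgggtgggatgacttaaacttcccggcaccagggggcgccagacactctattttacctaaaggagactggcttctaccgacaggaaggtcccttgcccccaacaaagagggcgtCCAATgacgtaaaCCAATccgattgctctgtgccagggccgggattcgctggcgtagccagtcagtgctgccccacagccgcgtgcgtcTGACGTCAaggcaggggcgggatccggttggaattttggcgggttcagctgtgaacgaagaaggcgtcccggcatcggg
MCM6: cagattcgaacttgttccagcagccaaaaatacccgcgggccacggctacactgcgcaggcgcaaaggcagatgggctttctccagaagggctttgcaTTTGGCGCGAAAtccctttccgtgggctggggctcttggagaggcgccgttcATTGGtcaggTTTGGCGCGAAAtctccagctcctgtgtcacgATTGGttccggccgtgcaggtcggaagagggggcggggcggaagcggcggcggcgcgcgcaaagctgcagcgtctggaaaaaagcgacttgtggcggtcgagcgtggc
RFC3: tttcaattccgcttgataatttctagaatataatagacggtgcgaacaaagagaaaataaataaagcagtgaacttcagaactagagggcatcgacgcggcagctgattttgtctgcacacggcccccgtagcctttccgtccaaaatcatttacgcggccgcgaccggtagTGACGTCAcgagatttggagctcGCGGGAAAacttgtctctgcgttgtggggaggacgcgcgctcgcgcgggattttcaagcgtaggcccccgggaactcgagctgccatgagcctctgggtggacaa
RFC1: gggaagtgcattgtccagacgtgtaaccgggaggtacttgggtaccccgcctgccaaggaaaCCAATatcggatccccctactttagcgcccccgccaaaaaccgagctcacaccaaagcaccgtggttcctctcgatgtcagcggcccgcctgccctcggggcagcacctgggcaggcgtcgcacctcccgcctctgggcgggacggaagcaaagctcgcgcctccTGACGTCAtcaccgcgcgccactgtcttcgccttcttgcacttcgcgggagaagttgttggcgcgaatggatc
In hg38 the gene CDC6 (ENSG00000094804) spans chromosome 17 from 40287879 to 40304657, MCM6 (ENSG00000076003) chromosome 2 from 135839626 to 135876443, and RFC1 (ENSG00000035928) chromosome 4 from 39287456 to 39366375. CDC6, the member with the highest log2FC, holds 1 E2F stretch and 3 CCAAT words. MCM6 holds 2 E2F stretches and 2 CCAAT words. MCM10, RFC3 and RFC1 each hold 1 cAMP response element, although MCM10 and RFC3 were called higher in control and RFC1 was not.

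Per library, the counts summed to between 5942808 and 7599305. At these totals 3 counts, taken as the smallest level that can be told from 0, correspond to 0.395 to 0.505 CPM (counts scaled to the size of the library), and this limit covers counting error only. The lowest count of any member in any library was 13. ATF1, whose row collects reads of the fusion together with those of normal ATF1, stood at 82.2 and 87.4 CPM in control, 21.2 and 20.3 CPM with EA1 siRNA 1 and 21.7 and 22.3 CPM with EA1 siRNA 2. A loss of normal ATF1 therefore cannot be told apart from a loss of the fusion in these counts. All 8 markers listed for the line had a row, with SOX10 between 785.5 and 979.0 CPM and MITF between 636.3 and 1175.0 CPM. MLANA was low, at 0.60 and 0.0 CPM in control and between 1.81 and 4.27 CPM in the knockdown libraries. Of these 8 markers, 6 were called lower in control than with either EA1 siRNA, ERBB3 only against EA1 siRNA 1, and SOX10 against neither, in the same test as the members. The part of this shift in the results below was not tested. PTPRC, EPCAM, PECAM1 and DES, markers of other cell types, had no row and were not analysed here.

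Replication genes were lower after knockdown in nearly every step of the pathway. A positive log2FC means that a gene was higher in control. In the quasi-likelihood test of edgeR, adjusted by Benjamini-Hochberg over all genes tested, 41 of 46 members were called higher in control than with EA1 siRNA 1, where 20.3% of all genes were called higher. None of the members was called lower in that contrast, where 19.9% of all genes were, and no member was lower even at an unadjusted p under 0.05. By DESeq2 no member was lower and 40 were called higher, against 25.4% of 18118 genes called in either direction. For EA1 siRNA 2, 38 of 46 members were called higher, against 18.2% of all genes, and 0 lower, against 18.5%, again with 0 lower at an unadjusted p under 0.05. DESeq2 called 0 lower and 35 higher there, against 22.9% of 18118 genes called in either direction. With both EA1 siRNAs averaged, 42 members were called higher in control, against 22.1% of all genes. The median log2FC of the members was 1.6 against EA1 siRNA 1 and 1.03 against EA1 siRNA 2, where the medians over all genes were -0.02 and 0.00. A log2FC above 1 was found in 35 members for EA1 siRNA 1, against 10.6% of all genes, and in 25 for EA1 siRNA 2, against 9.26%. The contrasts share the control libraries, so their values for the members are given side by side and not as independent support of each other.

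In 43 of 46 members both control libraries lay above all 4 knockdown libraries, as they did in 27.3% of all genes. The exceptions were POLA1, POLD2 and RFC1. Calls with each EA1 siRNA were made for 38 members, calls with EA1 siRNA 1 alone for POLA1, POLA2 and RPA1, and calls with neither for ORC4, ORC5, GINS3, POLD2 and RFC1. Summed over the 46 members, the normalised levels were 2889 and 3155 CPM in control, 1194 and 1243 CPM with EA1 siRNA 1, and 1364 and 1727 CPM with EA1 siRNA 2. The control sum was 2.48-fold that with EA1 siRNA 1 and 1.95-fold that with EA1 siRNA 2. CPM here and below are normalised by the TMM method and are not corrected for gene length. DBF4, PCNA and RPA2 each have 3 pseudogenes named after them in GENCODE, and how reads shared with such copies were counted is not known.

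**Figure D1:**
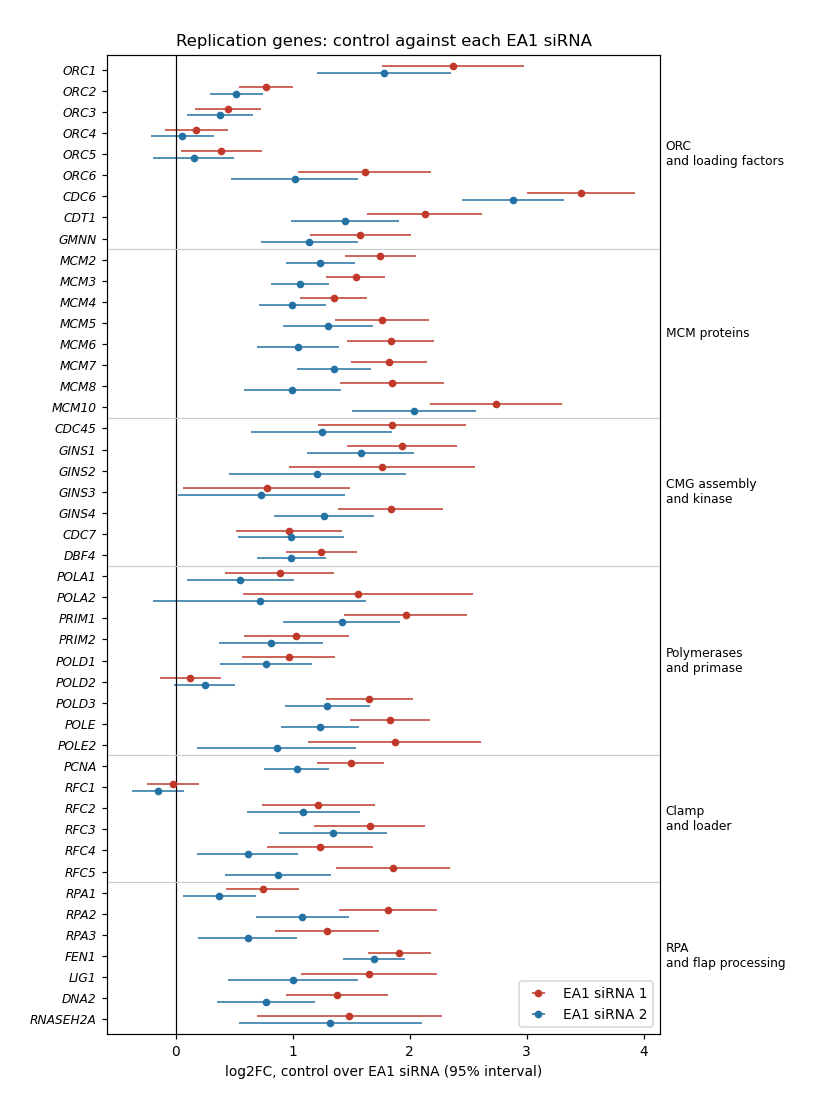
Log2FC of control over each EA1 siRNA (x axis) for the 46 members (y axis), grouped by role. Red points are EA1 siRNA 1 and blue points EA1 siRNA 2, and bars are 95% intervals from the edgeR fit. CDC6 stands farthest to the right at 3.46 and 2.88, while ORC4, POLD2 and RFC1 have intervals that include 0 with each EA1 siRNA.

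Origin recognition and licensing genes showed the widest spread of any group. Of the 9 genes, 7 were called with each EA1 siRNA, with a median log2FC of 1.58 against EA1 siRNA 1 and 1.02 against EA1 siRNA 2 and a range from 0.18 to 3.46 and from 0.06 to 2.88. CDC6, the ATPase that joins ORC to receive the helicase, was at 137.6 and 149.9 CPM in control, 11.7 and 14.5 CPM with EA1 siRNA 1, and 13.7 and 24.6 CPM with EA1 siRNA 2. The groups did not overlap, and the highest knockdown library was EA1 siRNA 2 replicate 2. Its level was 11-fold higher in control than with EA1 siRNA 1 (log2FC 3.46, standard error 0.21, adjusted p = 5.35e-07) and 7.38-fold higher than with EA1 siRNA 2 (log2FC 2.88, standard error 0.20, adjusted p = 1.53e-06).

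ORC1, the largest ORC subunit and the one known to be degraded and remade in each cell cycle, had 28.6 and 27.1 CPM in control, 4.55 and 6.26 CPM with EA1 siRNA 1 and 5.70 and 10.2 CPM with EA1 siRNA 2. Every knockdown library lay below both control libraries, and the log2FC was 2.37 (standard error 0.28) and 1.78 (standard error 0.26). ORC6, the smallest subunit, followed with a log2FC of 1.62 and 1.02. The other subunits had lower values. ORC2 to ORC5, which with ORC1 form the ring around DNA, had a median log2FC of 0.42 against EA1 siRNA 1 and 0.27 against EA1 siRNA 2, and ORC2 and ORC3 were called in each contrast with values of 0.77 and 0.52 for ORC2 and 0.45 and 0.38 for ORC3. The call of ORC3 with EA1 siRNA 2 was lost in 7 of 13 alternative settings, among them those without either control library, either EA1 siRNA 2 library or EA1 siRNA 1 replicate 1, and its adjusted p reached 0.144. With EA1 siRNA 1 it was lost by DESeq2, without control replicate 1 and without EA1 siRNA 1 replicate 1.

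ORC4 had 45.7 and 46.8 CPM in control, 39.3 and 42.7 CPM with EA1 siRNA 1 and 45.0 and 43.9 CPM with EA1 siRNA 2. Both control libraries lay narrowly above the others, and the log2FC was 0.18 (interval -0.09 to 0.44, adjusted p = 0.28) and 0.06 (interval -0.21 to 0.32, adjusted p = 0.759). ORC5 had a log2FC of 0.39 (adjusted p = 0.0696) and 0.15 (adjusted p = 0.483). With the replicate number as a block ORC5 was called for EA1 siRNA 1, at an adjusted p of 0.0424 from edgeR, and it was also called there without EA1 siRNA 1 replicate 1 or without either EA1 siRNA 2 library.

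The loading factor CDT1 and its inhibitor geminin, encoded by GMNN, fell together. CDT1 was at 24.3 and 23.1 CPM in control, 5.83 and 4.94 CPM with EA1 siRNA 1, and 7.83 and 9.41 CPM with EA1 siRNA 2. GMNN was at 32.9 and 35.1 CPM in control, 13.1 and 9.55 CPM with EA1 siRNA 1, and 16.7 and 14.2 CPM with EA1 siRNA 2. For each gene both control libraries lay above all knockdown libraries. The log2FC of CDT1 was 2.13 (standard error 0.22, adjusted p = 2.03e-05) and 1.45 (standard error 0.21, adjusted p = 0.000277). The log2FC of GMNN was 1.58 (standard error 0.20, adjusted p = 6.81e-05) and 1.14 (standard error 0.19, adjusted p = 0.000675). As a ratio of levels per exon length, CDT1 over GMNN stood at 0.661 and 0.591 in control, 0.400 and 0.464 after EA1 siRNA 1, and 0.420 and 0.595 after EA1 siRNA 2. EA1 siRNA 2 replicate 2 thus lay within the range of control, and the ratio was not tested.

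**Figure D2:**
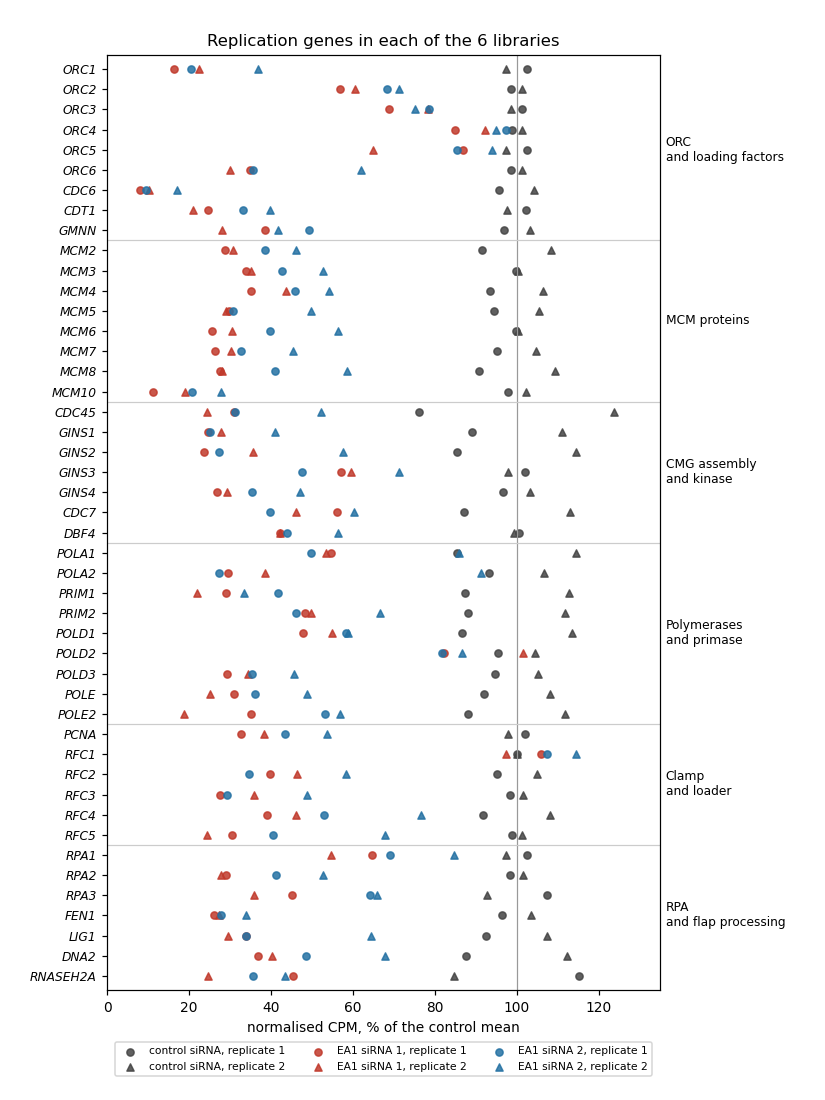
Normalised CPM of each member (y axis) in each of the 6 libraries, as a percentage of the mean of both control libraries (x axis). Circles are replicate 1 and triangles replicate 2, in grey for control, red for EA1 siRNA 1 and blue for EA1 siRNA 2. All knockdown libraries lie to the left of both control libraries in 43 of 46 genes, and the blue triangle is often the closest to control.

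The MCM genes were called without exception. All 8 passed the test with each EA1 siRNA, at a median log2FC of 1.79 against EA1 siRNA 1 and 1.15 against EA1 siRNA 2. Among the 6 subunits of the helicase ring, MCM2 to MCM7, the log2FC ran only from 1.35 to 1.84 for EA1 siRNA 1 and from 1.00 to 1.35 for EA1 siRNA 2. Their summed level was 916.0 and 996.4 CPM in control, 295.9 and 333.8 CPM with EA1 siRNA 1 and 378.3 and 486.7 CPM with EA1 siRNA 2. All 6 had both control libraries above all knockdown libraries.

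MCM7 was at 184.7 and 203.1 CPM in control, 50.9 and 58.8 CPM with EA1 siRNA 1, and 63.6 and 87.9 CPM with EA1 siRNA 2. Its control level was 3.54-fold and 2.55-fold that with EA1 siRNA 1 and EA1 siRNA 2, with adjusted p of 3.44e-06 and 2.99e-05. MCM4, at the low end of the ring subunits, was at 238.0 and 270.9 CPM in control, 89.0 and 111.0 CPM with EA1 siRNA 1 and 116.6 and 138.0 CPM with EA1 siRNA 2. Even there the groups did not overlap, and the log2FC was 1.35 (standard error 0.13) and 1.00 (standard error 0.13).

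MCM6 was at 80.1 and 80.5 CPM in control, 20.5 and 24.5 CPM with EA1 siRNA 1 and 31.9 and 45.3 CPM with EA1 siRNA 2. Here the libraries of the EA1 siRNAs did not overlap either, with EA1 siRNA 1 the lower. The log2FC was 1.84 (standard error 0.17, adjusted p = 8.18e-06) for EA1 siRNA 1 and 1.05 (standard error 0.16, adjusted p = 0.000375) for EA1 siRNA 2. The difference between these is taken up further on. MCM2, of whose exon bases 23.6% overlap a gene on the opposite strand, MCM3 and MCM5, the other ring subunits, had a log2FC of 1.75, 1.54 and 1.76 for EA1 siRNA 1 and of 1.24, 1.07 and 1.30 for EA1 siRNA 2.

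MCM8 and MCM10 are not part of the ring. MCM10, a fork factor needed to activate the loaded helicase, was at 31.3 and 32.7 CPM in control, 3.56 and 6.09 CPM with EA1 siRNA 1 and 6.59 and 8.84 CPM with EA1 siRNA 2. It had the second highest log2FC of all members, 2.74 (standard error 0.26, adjusted p = 9.36e-06) and 2.04 (standard error 0.24, adjusted p = 6.18e-05). MCM8, a helicase of recombination, had a log2FC of 1.85 and 1.00. Of its annotated exon bases 33.3% are shared with another gene on the same strand, so part of its reads may not have been assigned to it.

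Of the 7 genes that assemble or fire the helicase, 6 were called with each EA1 siRNA and the median log2FC was 1.76 and 1.21. GINS1, a subunit of the GINS complex, was at 54.3 and 67.8 CPM in control, 15.1 and 17.0 CPM with EA1 siRNA 1 and 15.3 and 25 CPM with EA1 siRNA 2. GINS4 was at 28.3 and 30.2 CPM in control, 7.82 and 8.56 CPM with EA1 siRNA 1 and 10.3 and 13.8 CPM with EA1 siRNA 2. Both genes had their control libraries well above the rest, with a log2FC of 1.93 and 1.58 for GINS1 and of 1.84 and 1.27 for GINS4. GINS2 had a log2FC of 1.76 and 1.21, and its EA1 siRNA 2 call was lost without control replicate 2 or without EA1 siRNA 2 replicate 1, where its adjusted p reached 0.112.

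GINS3 had the lowest counts of the 4 GINS genes, 51 and 57 in control, 30 and 27 after EA1 siRNA 1 and 20 and 38 after EA1 siRNA 2. Its CPM of 7.63 and 7.33 in control lay above the 4.27 and 4.45 CPM with EA1 siRNA 1 and the 3.56 and 5.34 CPM with EA1 siRNA 2. The groups did not overlap, yet neither contrast passed the test, with a log2FC of 0.78 (95% interval 0.06 to 1.49, adjusted p = 0.079) and 0.73 (interval 0.02 to 1.45, adjusted p = 0.102). Of the annotated exon bases, 10.9% of GINS3 and 23.4% of GINS4 overlap a gene on the opposite strand. Averaged over both EA1 siRNAs GINS3 was called, at a log2FC of 0.75 and an adjusted p of 0.0436 from edgeR with Benjamini-Hochberg adjustment, but this call was lost by DESeq2 and without any 1 library other than EA1 siRNA 2 replicate 2, at adjusted p of up to 0.159. CDC45, which travels with the helicase and GINS, had a log2FC of 1.85 and 1.25, and its EA1 siRNA 2 call was lost without control replicate 2 (adjusted p = 0.0522). The log2FC of the kinase CDC7 was 0.97 and 0.99, and that of its activator DBF4 was 1.25 and 0.99. CDC7 was one of only 2 members with a higher fitted level in EA1 siRNA 1 than in EA1 siRNA 2, by 0.02 on the log2 scale.

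Polymerase and primase genes varied by subunit. Of the 9 genes, 8 were called after EA1 siRNA 1 and 6 after EA1 siRNA 2, and the median log2FC was 1.56 and 0.82. PRIM1, the catalytic subunit of primase, was at 22.3 and 28.8 CPM in control, 7.40 and 5.60 CPM with EA1 siRNA 1, and 10.7 and 8.56 CPM with EA1 siRNA 2. POLE, the catalytic subunit of the leading strand polymerase, was at 129.0 and 151.5 CPM in control, 43.4 and 35.2 CPM with EA1 siRNA 1, and 50.7 and 68.2 CPM with EA1 siRNA 2. Neither gene had an overlap between control and knockdown. The log2FC was 1.97 (standard error 0.24) and 1.42 (standard error 0.23) for PRIM1, and 1.83 (standard error 0.16) and 1.23 (standard error 0.15) for POLE. PRIM1 shares 15.1% of its exon bases with another gene on the same strand, POLA2 16.8%, POLD1 8.63% and POLD3 2.24%.

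POLE2, the second subunit of the leading strand polymerase, had a log2FC of 1.87 and 0.86, and its call with EA1 siRNA 2 (adjusted p = 0.0479) was lost by DESeq2 and without either control or either EA1 siRNA 2 library, up to an adjusted p of 0.225. Among the subunits of polymerase delta, which extends the lagging strand, POLD3 had a log2FC of 1.65 and 1.30 and the catalytic POLD1 one of 0.97 and 0.77, whereas POLD2 was called in neither contrast. POLD2 was at 101.8 and 111.3 CPM in control, 87.8 and 108.2 CPM with EA1 siRNA 1, and 87.1 and 92.4 CPM with EA1 siRNA 2. EA1 siRNA 1 replicate 2 lay between the control libraries, and the log2FC of POLD2 was 0.12 (95% interval -0.14 to 0.39, adjusted p = 0.443) and 0.25 (interval -0.01 to 0.51, adjusted p = 0.13). The level of POLD3 per exon length relative to that of POLD2 was 0.758 and 0.770 in control, 0.271 and 0.259 after EA1 siRNA 1 and 0.330 and 0.402 after EA1 siRNA 2.

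In polymerase alpha, which starts each fragment from the RNA primer, POLA1 and POLA2 differed widely between the EA1 siRNA 2 libraries. POLA1 was at 81.9 and 109.9 CPM in control, 52.5 and 51.2 CPM with EA1 siRNA 1, and 47.7 and 82.3 CPM with EA1 siRNA 2, so that EA1 siRNA 2 replicate 2 overlapped control. Its log2FC was 0.89 (adjusted p = 0.00581) and 0.55 (adjusted p = 0.0578), so the EA1 siRNA 2 contrast was not called in the main fit. With the replicate block that contrast was called at an adjusted p of 0.00627 from edgeR. It was also called by DESeq2 and with no filter on low counts. POLA2 had counts of 69 and 92 in control, 23 and 26 after EA1 siRNA 1 and 17 and 72 after EA1 siRNA 2. Its libraries with EA1 siRNA 2 stood at 3.03 and 10.1 CPM against 10.3 and 11.8 CPM in control, and the log2FC of 1.56 (adjusted p = 0.016) and 0.72 (adjusted p = 0.207) was called only for EA1 siRNA 1. Without EA1 siRNA 2 replicate 2 both genes were called for EA1 siRNA 2, POLA2 at an adjusted p of 0.00175. For EA1 siRNA 1, the calls of both were lost without control replicate 2, and that of POLA2 also without either EA1 siRNA 1 library, at adjusted p of up to 0.111. PRIM2, the large primase subunit, had a log2FC of 1.03 and 0.82, and like POLD1 it lost its EA1 siRNA 2 call without control replicate 2, at an adjusted p of 0.0706 for PRIM2 and 0.0585 for POLD1.

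In the clamp and its loader, 5 of 6 genes were called with each EA1 siRNA and 1, RFC1, was called with neither. PCNA, the sliding clamp and the member with the highest level per length, was at 120.5 and 115.6 CPM in control, 38.5 and 45.1 CPM with EA1 siRNA 1 and 51.3 and 63.5 CPM with EA1 siRNA 2. Control and knockdown did not overlap, with a log2FC of 1.5 (standard error 0.13, adjusted p = 5.56e-06) and 1.04 (standard error 0.13, adjusted p = 8.25e-05). RFC3 was at 54.6 and 56.4 CPM in control, 15.4 and 19.9 CPM with EA1 siRNA 1 and 16.2 and 27.1 CPM with EA1 siRNA 2. RFC5 was at 51.2 and 52.5 CPM in control, 15.8 and 12.7 CPM with EA1 siRNA 1 and 21.0 and 35.1 CPM with EA1 siRNA 2. These small loader subunits were lower in every knockdown library, with a log2FC of 1.66 and 1.34 for RFC3 and of 1.86 and 0.87 for RFC5. Of the exon bases of RFC5, 10.6% overlap a gene on the opposite strand. RFC2 had a log2FC of 1.22 and 1.09. RFC4 had a log2FC of 1.24 and 0.62, and its call with EA1 siRNA 2 (adjusted p = 0.0298) was lost by DESeq2, without control replicate 2 and without EA1 siRNA 2 replicate 1.

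RFC1, the large subunit that directs the loader to PCNA, was at 107.8 and 107.9 CPM in control, 114.2 and 105.1 CPM with EA1 siRNA 1, and 115.7 and 123.5 CPM with EA1 siRNA 2. Control lay among the knockdown libraries, and RFC1 was the only member with a log2FC below 0 in each contrast, -0.02 (95% interval -0.24 to 0.20, adjusted p = 0.869) and -0.15 (interval -0.37 to 0.07, adjusted p = 0.27). Its value with EA1 siRNA 1 turned to 0.0059 without control replicate 2 and to 0.04 without EA1 siRNA 1 replicate 1, and it was not called in any of the 13 alternative settings. Its promoter window printed above holds a cAMP response element, as does that of RFC3.

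Genes of single strand binding and of fragment maturation were called in 7 of 7 cases with EA1 siRNA 1 and 6 of 7 with EA1 siRNA 2, at a median log2FC of 1.49 and 1.00. FEN1, the nuclease that trims the flap of each lagging strand fragment, was at 128.1 and 137.7 CPM in control, 34.6 and 36.2 CPM with EA1 siRNA 1 and 37.0 and 44.9 CPM with EA1 siRNA 2. RPA2, the middle subunit of RPA, was at 31.0 and 32.0 CPM in control, 9.10 and 8.73 CPM with EA1 siRNA 1 and 13 and 16.6 CPM with EA1 siRNA 2. Both genes separated control from knockdown completely, with 3.76-fold and 3.23-fold higher levels of FEN1 in control (adjusted p = 7.44e-07 and 1.76e-06) and 3.53-fold and 2.12-fold higher levels of RPA2 (adjusted p = 2.07e-05 and 0.000707).

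RPA1, the large DNA-binding subunit, had the lowest log2FC of this group. It was at 57.9 and 55.0 CPM in control, 36.6 and 30.8 CPM with EA1 siRNA 1 and 39.0 and 47.9 CPM with EA1 siRNA 2. Control still lay above every other library, but the log2FC of 0.37 with EA1 siRNA 2 missed the threshold (95% interval 0.06 to 0.68, adjusted p = 0.0583), where EA1 siRNA 1 gave 0.74 (adjusted p = 0.00162). With the replicate block RPA1 was called for EA1 siRNA 2 as well, at an adjusted p of 0.0437 from edgeR, as it was without EA1 siRNA 2 replicate 2. RPA3 had a log2FC of 1.30 and 0.62, and its EA1 siRNA 2 call was lost by DESeq2, without control replicate 1 and without EA1 siRNA 2 replicate 1. LIG1, the ligase that joins fragments, had a log2FC of 1.65 and 1.00, the nuclease and helicase DNA2 one of 1.38 and 0.77, and RNASEH2A, which removes RNA from DNA, one of 1.49 and 1.32. Of the exon bases of RNASEH2A, 53.3% are shared with another gene on the same strand, and its calls were lost without control replicate 1 in each contrast and without EA1 siRNA 1 replicate 2 in that of EA1 siRNA 1. Without control replicate 2 the EA1 siRNA 2 calls of LIG1 and DNA2 were lost, at adjusted p of 0.0557 and 0.0743.

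Subunits of a complex differed in how far their levels fell, and these differences between genes were not tested. Levels were compared between genes per kilobase of annotated exon (RPKM, mean ± SD of 2 libraries). In ORC, ORC2 was the highest subunit in all 3 groups, at 15.9 ± 0.31 RPKM in control, and the highest subunit was 3.06-fold the lowest in control, 5.50-fold with EA1 siRNA 1 and 4.35-fold with EA1 siRNA 2. The lowest subunit was ORC4 in control and ORC6 after either knockdown. In the MCM ring the order of the extremes was the same in all groups, MCM3 highest and MCM5 lowest, with ratios of 4.35, 5.08 and 5.16.

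In RFC the 5 subunits lay within 1.70-fold of each other in control, with RFC3 highest and RFC4 lowest. With EA1 siRNA 1 the range was 3.73-fold and with EA1 siRNA 2 it was 2.41-fold, with RFC1 highest in each. The GINS complex went the other way, from 5.20-fold in control to 2.34-fold and 2.89-fold, with GINS3, its lowest subunit in all groups, having the lowest log2FC. In RPA the highest subunit was RPA2 in control, at 15.9 ± 0.37 RPKM, and RPA1 after either knockdown, at 6.13 ± 0.74 and 7.91 ± 1.14 RPKM. The exon length counts every annotated exon of a gene, used in this line or not.

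**Figure D3:**
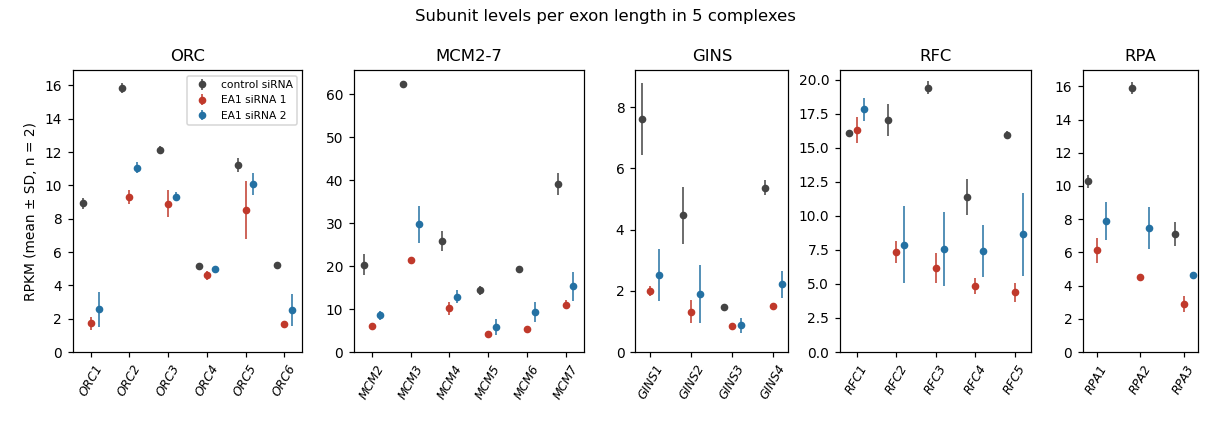
Level per exon length in RPKM (y axis, from 0, with its own scale in each panel) of the subunits of ORC, MCM2 to MCM7, GINS, RFC and RPA (x axis). Points are means and bars SD of 2 libraries, grey for control, red for EA1 siRNA 1 and blue for EA1 siRNA 2. RFC1 stays near 16 to 18 RPKM while RFC2 to RFC5 drop, and ORC4 is nearly level while ORC1 and ORC6 drop.

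Factors that work beside these genes were examined as a second list of 38 replication genes. With EA1 siRNA 1, 32 were called higher in control and 1 lower (20.3% and 19.9% of all genes), and with EA1 siRNA 2, 31 higher and 0 lower (18.2% and 18.5% of all genes), at a median log2FC of 1.08 and 0.80. At an unadjusted p under 0.05 the number that passed in either direction was 33 and 32, against 48.1% and 45.4% of all genes. DTL, the substrate receptor of the ligase that destroys CDT1 in S phase, was at 224.2 and 238.8 CPM in control, 25.9 and 35.4 CPM with EA1 siRNA 1 and 36.0 and 61.1 CPM with EA1 siRNA 2. All knockdown libraries lay far below control, with a log2FC of 2.92 and 2.24. DSCC1, part of an alternative clamp loader, had a log2FC of 2.30 and 1.89, and CHAF1B, a subunit of a histone chaperone of the fork, one of 2.15 and 1.85.

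Averaged over both EA1 siRNAs, the called genes of this list with the lowest log2FC were WDHD1, TOP1 and POLD4. The log2FC against each EA1 siRNA was 0.36 and 0.48 for WDHD1, a fork adaptor, and 0.35 (adjusted p = 0.0201) and 0.13 (adjusted p = 0.357) for the topoisomerase TOP1. Averaged over both EA1 siRNAs, the call of TOP1 was lost without any 1 library other than EA1 siRNA 2 replicate 1, and that of WDHD1 without control replicate 2. POLD4, the smallest subunit of polymerase delta, was at 4.64 and 4.50 CPM in control, 8.11 and 8.07 CPM with EA1 siRNA 1, and 6.59 and 8.14 CPM with EA1 siRNA 2. Every knockdown library lay above control, opposite to POLD1 and POLD3, and POLD4 was called lower in control with EA1 siRNA 1 (log2FC -0.82, standard error 0.29, adjusted p = 0.0409), a call that was lost without any 1 library of control or of EA1 siRNA 1.

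Between the EA1 siRNAs, most members had lower values with EA1 siRNA 1. The fitted level was lower with EA1 siRNA 1 in 44 of 46 members, as in 50.8% of all genes, and the median difference was -0.47 on the log2 scale. Only MCM6 passed the test of the difference, at -0.79 (95% interval -1.18 to -0.41, adjusted p = 0.0424, edgeR with Benjamini-Hochberg adjustment), where 2.24% of all genes were called in either direction. That call was lost without any 1 library other than EA1 siRNA 2 replicate 1. At an unadjusted p under 0.05 there were 22 members, all lower with EA1 siRNA 1, against 17% of all genes in either direction. With the replicate number as a block 9 members were called, MCM2, MCM3, MCM4, MCM6, MCM7, MCM8, POLE, PCNA and RFC5, and in that fit 5.85% of all genes were called. ATF1 itself was at nearly equal levels with the EA1 siRNAs, as given above.

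The size of this difference changed most with the EA1 siRNA 2 library left out. Without any 1 library of control or of EA1 siRNA 1 the median difference lay between -0.485 and -0.435. EA1 siRNA 2 replicate 2 exceeded replicate 1 in 42 of 46 members, where it did so in 50.2% of all genes, and the median ratio was 1.32-fold. In control, replicate 2 exceeded replicate 1 in 36 members (50.3% of all genes) by a median of 1.08-fold, and with EA1 siRNA 1 in 28 members (50.1%) by 1.04-fold. Without EA1 siRNA 2 replicate 2, edgeR called 0 members different between the EA1 siRNAs, against 5.11% of all genes, 11 passed at an unadjusted p under 0.05, against 18.2%, and the median difference was -0.16. The fitted level was then lower with EA1 siRNA 1 in 35 of 46 members, and 9 members changed sign. Without EA1 siRNA 2 replicate 1, 16 were called, against 3.41% of all genes, and the median difference was -0.64. DESeq2 over all 6 libraries called 5, against 2.56% of all genes. For the comparison of control with EA1 siRNA 2, the median log2FC was 1.33 without EA1 siRNA 2 replicate 2 and 0.84 without replicate 1. What sets the EA1 siRNA 2 libraries apart from each other was not tested.

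**Figure D4:**
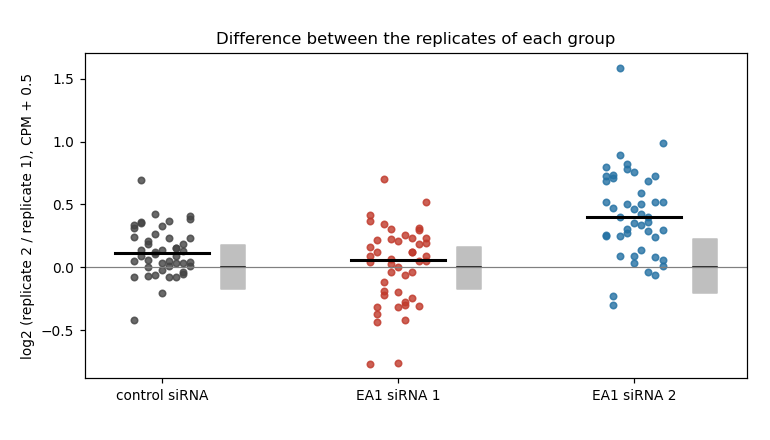
Log2 ratio of replicate 2 to replicate 1 (y axis, on CPM + 0.5) for each member in each group (x axis). The thick black line is the median over the 46 members, and the grey bar with its thin line is the interquartile range and median over all genes tested. The members lie mostly above 0 with EA1 siRNA 2, at a median of 0.40, and closer to 0 in control (0.11) and with EA1 siRNA 1 (0.06).

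The promoter words were then counted over the members. A RefSeq window was found for 39 of 46 members and not for MCM4, MCM5, GINS4, POLD3, RPA2, RPA3 and DNA2. E2F words were present in 20 of the 39 (51.3%), against 3.31% of all 35116 windows and 6.92% of the 10319 tested genes with a window. CCAAT was present in 23 members (59.0%), against 34.6% of windows and 43.9% of tested genes, and the cAMP response element in 3 (7.69%), against 1.85% and 3.94%. The AP1 word TGAGTCA was in 0 members, against 4.95% and 4.49%. The words were chosen with earlier results known, and a match is a string of letters, not a bound site. For E2F only the 4 exact words were searched, so a site spelled otherwise was missed.

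Members with and without the words overlapped in their response. The median log2FC averaged over both EA1 siRNAs was 1.40 in the 20 members with an E2F word and 1.12 in the 19 without. ORC1 and MCM10, next to CDC6 in log2FC, held none of the 4 E2F words searched in their window, whereas ORC3, with an averaged log2FC of 0.41, held 1. Other forms of the E2F word were not counted, such as the lower case tttggcggg in the printed windows of MCM10 and CDC6. RFC1, which was not called, holds the same form on the opposite strand, printed as cccgccaaa. FEN1, at 1.80, held none of the words searched. With CCAAT the medians were 1.40 and 1.13. All of these are descriptions, without a test.

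**Figure D5:**
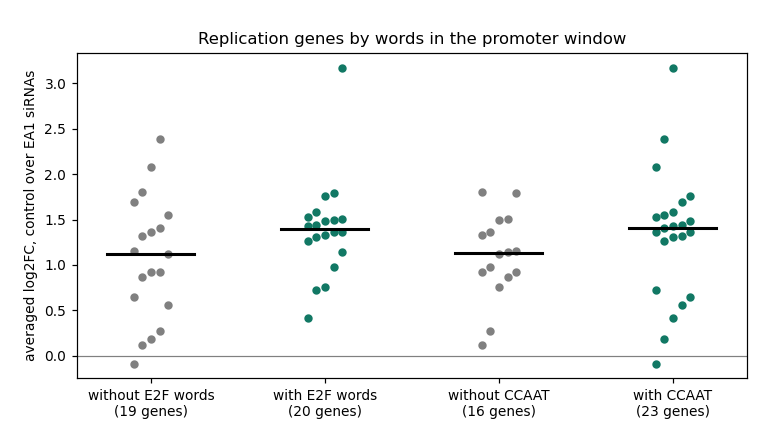
Log2FC averaged over both EA1 siRNAs (y axis) of the 39 members with a promoter window, split by the presence of an E2F word (left pair) or of CCAAT (right pair). Each point is a gene and black lines are medians, 1.12 without and 1.40 with an E2F word. The columns overlap over most of their range.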

How the data were processed

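RNA-seq was analysed in the 6 libraries of SU-CCS-1, with conditions and replicate numbers taken from the sample labels. The authors aligned reads to hg38 with BWA-MEM, an aligner without splice junctions, obtained gene counts with featureCounts 1.6.3 and deposited these counts raw, 1 column per library. The annotation, use of strand and filter on low counts are not given in the sources used here, so reads of overlapping genes are uncertain. Libraries labelled as replicates may be technical, and p values then measure only the spread between them.

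Those counts were filtered with filterByExpr of edgeR 4.0.16 (R 4.3.3) at a minimum count of 10 and a minimum total of 15, leaving 14571 genes. TMM scaling was followed by edgeR's quasi-likelihood test with 3 conditions in 1 fit, Benjamini-Hochberg adjustment over these genes, and calls under 0.05. Standard errors come from the F statistic. The common biological coefficient of variation was 0.109. Totals ran from 5942808 to 7599305 counts, and 3 counts correspond to 0.395 to 0.505 CPM. Exon lengths and overlaps came from GENCODE release 44, promoter windows from RefSeq (Python 3.11.15). The fit was tested on simulated data.

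After subtraction of condition means, libraries with the same number correlated at 0.130, 0.199 and 0.144 in the 3 pairs of conditions. The numbers may thus pair the libraries. The main fit did not use this pairing, and the replicate block was run as an alternative. The others were RLE size factors, library totals alone, no filter, a minimum of 10 counts per library, each library left out in turn, edgeR on the 4 libraries compared, all knockdown libraries merged into 1 condition (averages only) and DESeq2 1.42.0. The members and the lists were chosen with earlier results of these data known. Values in every library are given for the 2 members with the highest and the 1 with the lowest averaged log2FC in each group by role, members called lower in control or different between the EA1 siRNAs, CDT1, GMNN and PCNA, and, of the other replication genes, the 3 called with the highest and the 3 with the lowest averaged log2FC are named. POLA1 and POLA2 were given in full after their values were seen. Other libraries of the study were not used here.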

Additional observations from a re-analysis of the deposited data

Results flagged for a closer look

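MCM6 was the 1 member of 46 called different between the EA1 siRNAs in the main fit, where 2.24% of all genes were called. The difference of MCM6 was -0.79 on the log2 scale (EA1 siRNA 1 minus EA1 siRNA 2). The adjusted p of MCM6 in edgeR's test of the difference was 0.0424. Larger differences that were not called there were those of POLE2 (-1.01), RFC5 (-0.99), MCM8 (-0.85) and POLA2 (-0.84). Of these, RFC5 and MCM8 were called by DESeq2 and by edgeR with the replicate block, there at adjusted p of 0.0165 and 0.0158. POLE2 and POLA2 were called in neither. Over the alternatives the adjusted p of MCM6 ran from 0.00104 to 0.257. It passed with the replicate block, at 0.00851, and did not pass without either control library, either EA1 siRNA 1 library or EA1 siRNA 2 replicate 2. It also did not pass with library totals alone or by edgeR on only the 4 libraries compared.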

How the results depend on the processing

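The count of members called different between the EA1 siRNAs was 1 in the report, against 2.24% of all genes. It was 3 with no filter on low counts (2.24% of all genes), 2 with at least 10 counts in every library (3.08%) and 2 with RLE size factors (2.29%). Library totals alone gave 0 (1.69%), the replicate block 9 (5.85%), DESeq2 5 (2.56%) and edgeR on only the 4 libraries compared 0 (1.27%). Leaving out 1 library at a time gave 0 to 16, with the highest count without EA1 siRNA 2 replicate 1. At an unadjusted p under 0.05 there were 16 members with library totals alone and 16 in the 4 libraries compared, against 16.1% of all genes in each. The 1 other replication gene called lower in control with EA1 siRNA 1, POLD4, was not called by DESeq2 (0), and leaving out libraries gave 0 to 1, with 0 without either control or either EA1 siRNA 1 library. No called value changed sign, whereas some uncalled ones did, RFC1 against EA1 siRNA 1 among them and 9 members between the EA1 siRNAs without EA1 siRNA 2 replicate 2. Of the members called with EA1 siRNA 1, 37 of 41 were called in all 13 alternative settings, and of those called with EA1 siRNA 2, 27 of 38. Leaving out 1 library gave a median log2FC of the members of 1.52 to 1.64 with EA1 siRNA 1 and of 0.84 to 1.33 with EA1 siRNA 2. Without control replicate 2, fewer members and also a smaller share of all genes were called against EA1 siRNA 2 than in the main fit. Beside the calls gained for ORC5, POLA1 and RPA1 and the count between the EA1 siRNAs, the replicate block changed no call of a member against control. With 2 libraries per group, the differences of ORC4 and POLD2 could not be told from 0.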
